A study of Homo sapiens with 18 samples.

Results

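The genes described here encode the enzymes that build cholesterol and fatty acids and the proteins that control them, followed in human embryonic stem cells with and without ZNF263, a zinc finger transcription factor. The members were the 32 gene symbols of a list chosen for function, and all 32 stood among the 27130 symbols of the 3 count tables. They fall into 7 mevalonate steps, 11 steps from squalene to cholesterol, 6 genes of SREBP control and sterol transfer, and 8 fatty acid enzymes. The 18 sterol steps are kept apart from the fatty acid enzymes throughout.

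Polyadenylated RNA was sequenced from H1 (WA01) and H9 (WA09), established human embryonic stem cell lines, and from clones edited with Cas9. The replicated groups were H1 wild type, the homozygous ZNF263 knockout clone 1-10 of H1, H9 wild type, and the homozygous knockout clones 9-1 and 9-D of H9, with 3 libraries each. H1 wild type, the heterozygous knockout clone 1-5 and clone 1-10 were also sequenced once each in a separate set. Each knockout group is a single clone, so the effect of ZNF263 loss and the history of a clone cannot be told apart in H1, where only 1 clone was replicated. In H9 the libraries of clones 9-1 and 9-D were joined as a single knockout group, so p-values there do not measure the spread between clones. Clone history is not fully separated from ZNF263 loss there either. Sources do not say whether replicates were separate cultures, so p-values measure the spread between these libraries, which may be technical.

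Cells make cholesterol from acetyl-CoA through mevalonate, isoprenoid units, squalene and lanosterol. The same acetyl-CoA feeds fatty acid synthesis. Both routes are switched on by the SREBP transcription factors (SREBF1 and SREBF2), which are held in the endoplasmic reticulum by INSIG proteins when sterols are plentiful and carried to the Golgi by SCAP when sterols run low, and SREBP shares its target promoters with the factors NF-Y, which binds CCAAT boxes, and SP1, which binds GC boxes. Embryonic stem cells divide fast and need membrane lipid.

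The promoters of 5 members are shown: those of the 4 members with the largest rises in H9 among those with a promoter window, and that of SREBF2, the member promoter that holds the core sterol regulatory element. Each is the 150 bases before the RefSeq start (GRCh38.p14, while the counts used hg19), read 5′ to 3′ on the gene's strand. Capitals mark CCAAT boxes (CCAAT or ATTGG), GC boxes (GGGCGG or CCGCCC) and the sterol element core (TCACNCCAC).
MVD, chr16:88663092-88663241, minus strand: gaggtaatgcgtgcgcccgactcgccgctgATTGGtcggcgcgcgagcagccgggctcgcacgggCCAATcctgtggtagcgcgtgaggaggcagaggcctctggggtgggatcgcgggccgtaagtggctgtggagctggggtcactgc
LSS, chr21:46228775-46228924, minus strand: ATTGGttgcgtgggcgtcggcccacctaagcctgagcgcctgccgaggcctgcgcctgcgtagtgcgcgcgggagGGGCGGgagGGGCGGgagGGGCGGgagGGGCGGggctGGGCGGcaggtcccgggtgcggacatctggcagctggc
TM7SF2, chr11:65111722-65111871, plus strand: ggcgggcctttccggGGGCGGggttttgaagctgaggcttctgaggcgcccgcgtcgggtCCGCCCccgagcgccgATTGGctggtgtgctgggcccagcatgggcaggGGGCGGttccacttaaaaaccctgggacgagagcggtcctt
ACSS2, chr20:34874839-34874988, plus strand: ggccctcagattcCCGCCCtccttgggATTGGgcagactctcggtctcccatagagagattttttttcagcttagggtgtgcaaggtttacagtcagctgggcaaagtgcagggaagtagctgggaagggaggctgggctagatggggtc
SREBF2, chr22:41832955-41833104, plus strand: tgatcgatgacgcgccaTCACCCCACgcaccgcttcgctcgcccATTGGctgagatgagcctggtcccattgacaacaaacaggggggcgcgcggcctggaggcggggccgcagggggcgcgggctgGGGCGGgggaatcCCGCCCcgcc

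Promoter windows were found for 28 of the 32 members, and both strands of the 250 bases before each start were searched. A CCAAT box stood in 17 of the 28, against 33% of 27303 promoters of the same length. A GC box stood in 25 of the 28, against 42.2% of all promoters. The sterol element core TCACNCCAC was found in 1 of the 28, SREBF2, against 0.868% of all. The E-box CACGTG was found in 3 of the 28 (SC5D, INSIG1 and SCAP), against 6.46% of all. GGAGGAGG, a run of the kind reported for ZNF263 binding, stood in 4 of the 28 (MVK, TM7SF2, DHCR7 and SREBF1), against 9.01% of all. The 27303 promoters were not limited to genes expressed in these cells, and the shares among expressed genes were not computed. The comparison therefore cannot show that a motif is particular to these pathways. These are letter matches in a short window, and the presence of a bound factor was not tested.

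ZNF263 RNA itself was only modestly lower in the knockouts, at 33.9 ± 1.98 against 40.7 ± 1.22 CPM in H1 (SD, n = 3 each) and 36.1 ± 1.30 (n = 6) against 42.3 ± 2.27 (n = 3) in H9, and the edited part of the gene is not stated. CPM, counts relative to library size, are scaled by TMM, a correction for library composition, separately within each line. Library totals ran from 9.66 to 21.0 M counts. The pluripotency marker sum over 5 genes was 6197 to 6672 CPM in H1 wild type and 6857 to 7252 in clone 1-10, and 4970.4 to 5095 in H9 wild type against 5673 to 5955 in 9-1 and 5776 to 5899 in 9-D. The sum of 4 neural markers was 247 to 291 CPM in H9 wild type and 404 to 462 over both H9 clones, and in H1 312 to 334 against 302 to 358. That sum is mostly TUBB3, which rose in H9 (0.64 on the log2 scale, SE 0.0555), while SIX3 and PAX6 fell in H1 (-2.57, SE 0.218, and -1.12, SE 0.206). Of 7 fibroblast or feeder markers, COL3A1, PDGFRB and COL1A2 fell in H1 (-1.67, -0.39 and -0.28). In H9 POSTN, PDGFRB and COL1A2 fell (-1.24, -0.79 and -0.25) and COL1A1 rose (0.60). The feeder sums were 269 to 293 CPM in H1 wild type against 201 to 273 in clone 1-10, and in H9 the groups overlapped, with wild type at 389.8 to 458 and the highest knockout library at 497. Of 3 endoderm markers SOX17 fell in H1 (-1.59) and FOXA2 rose in H9 (1.85), with sums of at most 8.50 CPM in every group. Among lipid-making cell types, the 4 hepatocyte markers summed to at most 6.17 CPM and the 4 adipocyte markers to at most 33.2 CPM, with 3 of 4 under 1 CPM in each list. The part of these markers in the results was not tested.

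Loss of ZNF263 went with higher RNA of 8 of 18 sterol steps in H9, by 1.13-fold to 1.27-fold, where 14.4% of all genes were higher. MVD, LSS and TM7SF2 rose most of these. In H1 none of the 18 passed, where 5.01% of all genes were higher and 7.25% lower. In the test of the difference between the lines 4 of the 8 passed (MVD, TM7SF2, ACAT2 and LSS), and HMGCS1, MVK, FDFT1 and CYP51A1 did not, at adjusted p of 0.264, 0.910, 0.139 and 0.558 by edgeR. Among the fatty acid enzymes ACLY and ACSS2 rose and FADS1 fell in H9, and ACSS2 and FASN fell in H1. Among the control genes, SCAP and SREBF2 fell in H9 and INSIG2 fell in H1. In H9 these were 3 of 8 fatty acid enzymes and 2 of 6 control genes, against 29.7% of all genes. In H1 they were 2 of 8 and 1 of 6, against 12.3%. No member passed in both lines in the same direction, and ACSS2 passed in both in opposite directions.

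**Figure D1:**
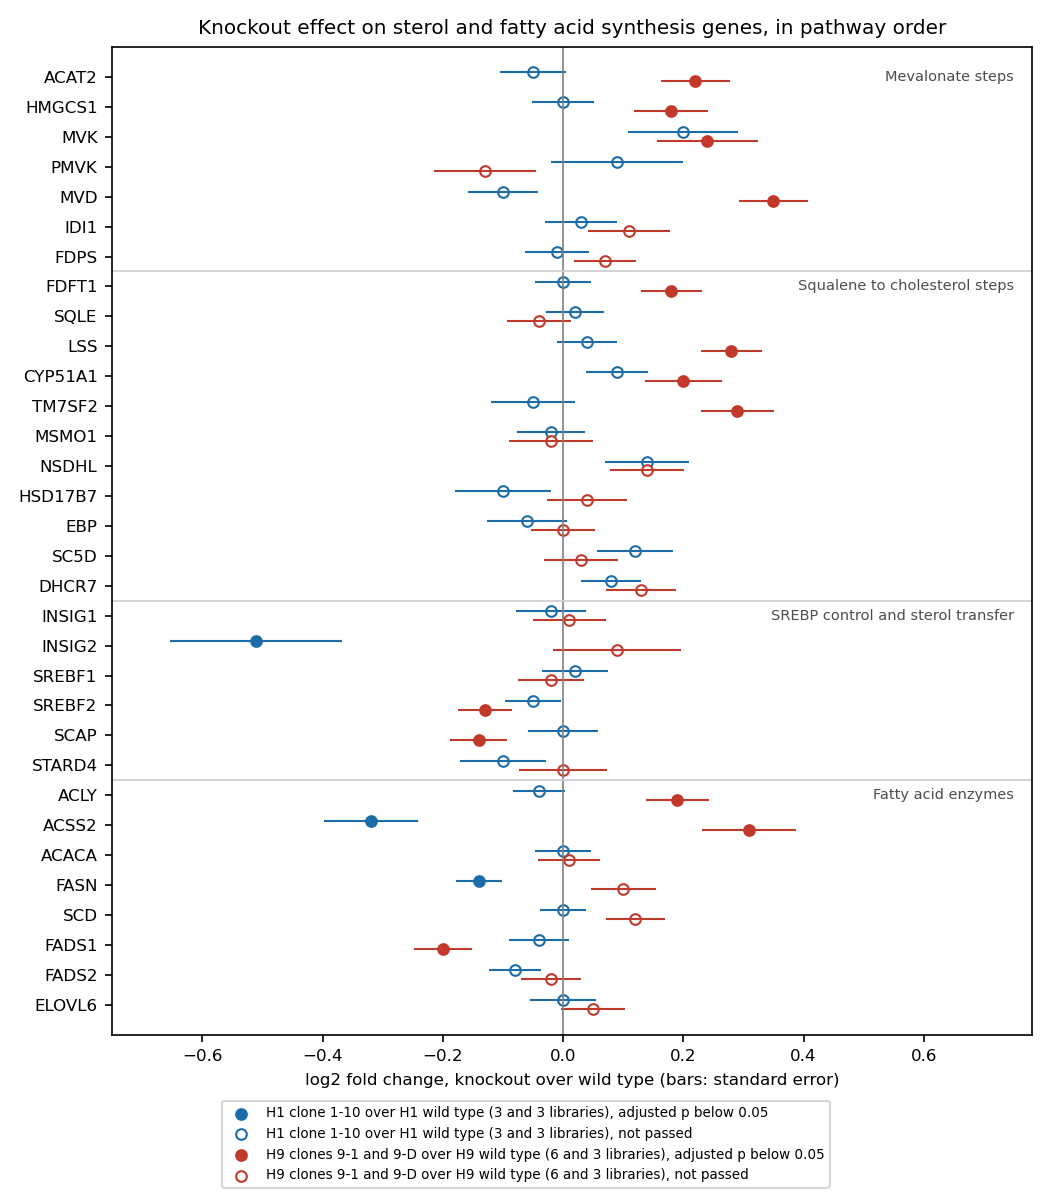
Log2 fold change (knockout over wild type) of each member with its standard error, H1 in blue and H9 in red, in pathway order from top to bottom. Filled points had an adjusted p below 0.05: in H9 the filled points of the sterol steps all lie to the right of 0, and in H1 none of the sterol steps is filled.

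In H1, clone 1-10 was compared with wild type by the quasi-likelihood test of edgeR, adjusted by Benjamini-Hochberg over 14897 genes, where a gene passed at an adjusted p below 0.05. Over all genes 12.3% passed, 5.01% higher and 7.25% lower, and 3 of the 32 members passed, all lower. Fold changes are given as log2 ratios with their standard error (SE). Among the 18 sterol steps the log2 fold change ran from -0.10 to 0.20 with a median of 0.01, against 0.00 for all genes. Of these, 1 had an unadjusted p below 0.05, MVK (mevalonate kinase), at 0.20 (SE 0.0911, adjusted p 0.159). It was named after its value was seen.

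INSIG2, which retains SREBP in the endoplasmic reticulum, had the largest change of any member in H1. It stood at 11.5, 8.79 and 13.8 CPM in wild type and at 8.26, 8.14 and 7.24 in clone 1-10, so that all 3 knockout libraries lay below all 3 wild-type libraries, the closest pair being 8.26 and 8.79. The log2 fold change was -0.51 (SE 0.143), or 0.70-fold, with an adjusted p of 0.0172 by edgeR with Benjamini-Hochberg adjustment. Without wild-type replicate 3, the highest library, the adjusted p was 0.197, and without knockout replicate 3 it was 0.0587. By DESeq2 it was 0.0684.

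Of the 8 fatty acid enzymes 2 passed in H1, both lower, against 12.3% of all genes passing and 7.25% lower. ACSS2, the cytosolic enzyme that makes acetyl-CoA from acetate, stood at 35.3, 36.7 and 36.4 CPM in wild type and at 30.4, 28.9 and 27.4 in clone 1-10. The groups did not overlap. Its log2 fold change was -0.32 (SE 0.0781), with an adjusted p of 0.00641 by edgeR with Benjamini-Hochberg adjustment, and it passed with each of the 6 libraries left out and under the 6 other settings tried. FASN, the fatty acid synthase, stood at 2535, 2497 and 2529 CPM in wild type and 2291, 2347 and 2207 in clone 1-10. Its log2 fold change was small, -0.14 (SE 0.0382), with an adjusted p of 0.0115, and it did not pass without wild-type replicate 3 (0.0528) or without knockout replicate 3 (0.0933). Over all 32 members, knockout and wild-type libraries did not overlap for 5 in H1, against 29.4% of all genes.

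The authors' deposited table gives 2 members as passing in H1, INSIG2 and FASN, and not ACSS2.

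The single H1 libraries, which have no replicate and so no test, gave a mixed picture of these genes. INSIG2 was counted 94 times in the wild-type library, 70 times in clone 1-5 and 89 times in clone 1-10. Its ratio of CPM to wild type was 0.63 in clone 1-5 (95% counting interval 0.46 to 0.87) and 0.79 in clone 1-10 (0.58 to 1.06), where the interval includes no change. ACSS2 had ratios of 1.25 (1.07 to 1.45) and 1.05 (0.90 to 1.22), and FASN of 1.12 (1.10 to 1.13) and 1.05 (1.03 to 1.07), none of them below 1. Intervals cover counting error only, because each group had a single library. They also take every read as a separate molecule, as reads were not marked by molecule. Over the 18 sterol steps the median log2 ratio was 0.03 in clone 1-5 and 0.07 in clone 1-10, against -0.03 and -0.02 for 12883 genes with at least 20 counts in each library. Of the 18, 13 were above wild type in clone 1-5 and 14 in clone 1-10. MVD had ratios of 1.23 (1.15 to 1.32) and 1.11 (1.03 to 1.19), and LSS of 1.12 (1.07 to 1.17) and 1.06 (1.02 to 1.11). The intervals of ACAT2 and TM7SF2 included 1 in both clones. ACLY was at 1.11 (1.07 to 1.14) and 1.10 (1.07 to 1.13), and FADS1 at 0.84 (0.80 to 0.88) and 0.89 (0.85 to 0.94). In the replicated H1 libraries none of these genes passed.

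In H9, both clones together were compared with wild type (6 and 3 libraries). Over 15411 genes 29.7% passed, 14.4% higher and 15.3% lower, and 13 of the 32 members passed, 10 higher and 3 lower. All 8 sterol steps that passed were higher, of 18, and their share has to be read against 14.4% of all genes being higher. The median log2 fold change of the 18 was 0.14, against -0.00 for all genes, and 15 of the 18 values were positive. The list was chosen with earlier results of these data known, so this is a description of its members.

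**Figure D2:**
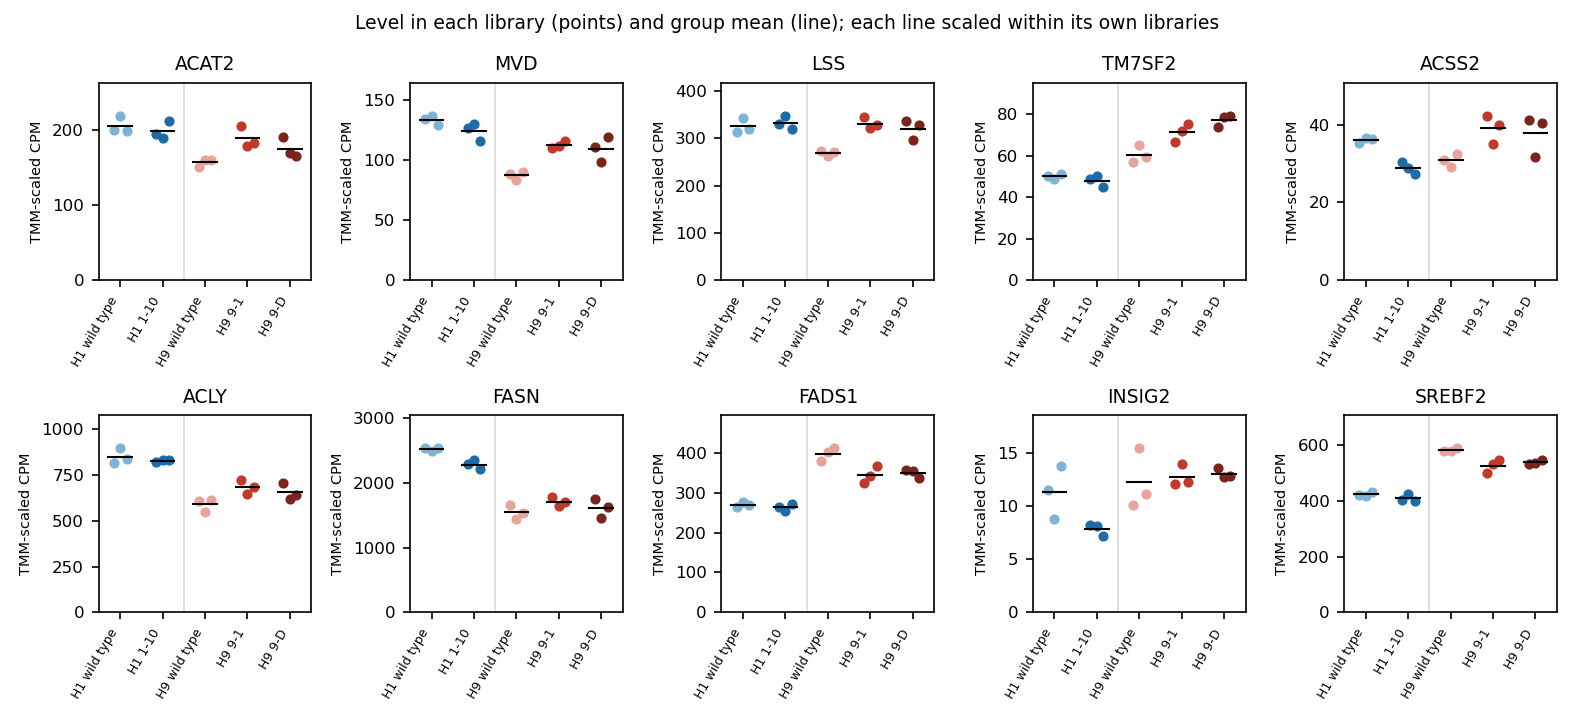
TMM-scaled CPM of 10 members in each of the 15 replicated libraries (points, a panel per gene, axis from 0) with the group mean (line). In H9 the knockout points of ACAT2, MVD, LSS and TM7SF2 lie above all 3 wild-type points, those of FADS1 and SREBF2 below them, and in H1 those of ACSS2, FASN and INSIG2 lie below.

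Of the mevalonate steps 4 of 7 were higher, against 14.4% of all genes. MVD, which decarboxylates mevalonate diphosphate to the isoprenoid unit, stood at 88.8, 83.2 and 90.2 CPM in H9 wild type, at 110.1, 112 and 116 in 9-1 and at 111, 98.4 and 119 in 9-D. All 6 knockout libraries lay above all 3 wild-type libraries. The log2 fold change was 0.35 (SE 0.0567), or 1.27-fold, with an adjusted p of 1.72e-05 by edgeR with Benjamini-Hochberg adjustment.

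ACAT2, the thiolase that joins the first 2 acetyl-CoA units, stood at 150.4, 159.7 and 160.3 CPM in wild type, at 206, 179 and 183 in 9-1 and at 191, 169 and 166 in 9-D. The rise was 0.22 (SE 0.0578) on the log2 scale, with an adjusted p of 0.00451 by edgeR. The groups did not overlap. ACAT2 shares 33.9% of its exon bases with SOD2-OT1, 26.5% with SOD2 and 9.23% with TCP1, which lie on the opposite strand. The strand setting of the counting is not given, so reads of such pairs cannot be told apart. SOD2 and TCP1 did not pass in H9, at 0.08 (SE 0.0535) and 0.09 (SE 0.0499). In H1, TCP1 passed at 0.14 (SE 0.0456, edgeR adjusted p 0.0414) and SOD2 did not, at 0.06 (SE 0.0563).

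HMGCS1, which makes HMG-CoA, and MVK passed with less margin. HMGCS1 stood at 348, 378 and 362 CPM in wild type, at 451, 424 and 428 in 9-1 and at 438, 378 and 347 in 9-D, where 9-D overlapped wild type. The rise was 0.18 on the log2 scale (SE 0.0617, edgeR adjusted p 0.0264). MVK stood at 19.9, 19.5 and 21.2 CPM in wild type, at 27.9, 22.9 and 21.7 in 9-1 and at 24.1, 21.1 and 25.6 in 9-D, and the lowest 9-D library lay below the highest wild-type library. MVK rose by 0.24 on the log2 scale (SE 0.0843, edgeR adjusted p 0.0299). HMGCS1 did not pass without H9 wild-type replicate 1 (0.149), nor without any of 5 other libraries, and MVK not without 3 of the 9. IDI1, PMVK and FDPS did not pass in H9, at 0.11 (SE 0.0679), -0.13 (SE 0.0854) and 0.07 (SE 0.0510). FDPS shares 18.6% of its exon bases with RUSC1-AS1, HMGCS1 15% with AC114947.2 and IDI1 14.8% with IDI2-AS1, all on the opposite strand, so their counts carry the same doubt as those of ACAT2. Other members share at most 6.92% with any 1 gene on the opposite strand. That largest share is of SREBF1 with RAI1, which passed in both lines, at -1.38 (SE 0.168) in H1 and -1.87 (SE 0.223) in H9. The counts of SREBF1 therefore carry this doubt too.

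Of the steps after squalene 4 of 11 were higher, against the same 14.4%. LSS, which closes squalene epoxide into lanosterol, stood at 274, 262 and 272 CPM in wild type, at 345, 322 and 328 in 9-1 and at 338, 297 and 328 in 9-D. All 6 knockout libraries were above wild type, with a log2 fold change of 0.28 (SE 0.0502, edgeR adjusted p 7.31e-05). TM7SF2, a sterol reductase of the late pathway, stood at 57.2, 65.3 and 59.2 CPM in wild type, at 66.5, 71.8 and 75.6 in 9-1 and at 73.7, 78.8 and 79.3 in 9-D. Its knockout libraries too were all above wild type, with a log2 fold change of 0.29 (SE 0.0611, edgeR adjusted p 0.000379).

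FDFT1, squalene synthase, stood at 357, 409 and 391 CPM in wild type, at 457, 420.1 and 441 in 9-1 and at 451, 409 and 438 in 9-D, with the lowest knockout library level with the highest wild-type library. FDFT1 rose by 0.18 on the log2 scale (SE 0.0506, edgeR adjusted p 0.00826). CYP51A1, which demethylates lanosterol, stood at 232, 288 and 266 CPM in wild type, at 283, 324 and 311 in 9-1 and at 329, 295 and 264 in 9-D, with overlap. It rose by 0.20 on the log2 scale (SE 0.0637, edgeR adjusted p 0.0183). Both lost the call without H9 wild-type replicate 1, the lowest library for each (0.124 and 0.251). Of the 50-base words of CYP51A1 transcripts 88.9% also occur in another gene model, mostly a read-through transcript of the same strand, AC000120.2. No symbol of that name stands in the count tables, and whether reads were lost to it under another name is not known.

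The other 7 steps, SQLE, MSMO1, NSDHL, HSD17B7, EBP, SC5D and DHCR7, had log2 fold changes of -0.04 to 0.14 and did not pass. NSDHL and DHCR7, the last enzyme of cholesterol synthesis, stood at 0.14 (SE 0.0615) and 0.13 (SE 0.0586), with unadjusted p below 0.05 and adjusted p of 0.0749 and 0.0954 by edgeR. Of the 50-base words of HSD17B7 transcripts 51.1% occur in other gene models, mostly the pseudogene HSD17B7P2, so its counts are uncertain.

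H9 wild-type replicate 1 was the lowest library of its group for 11 of the 18 sterol steps, and 9-D replicate 1 the highest of its group for 12 of the 18. Without H9 wild-type replicate 1, 4 of 18 sterol steps passed rather than 8, and 7 of 32 members rather than 13. Over all genes 3486 passed in that fit rather than 4574, with 1619 higher rather than 2213. MVD, LSS, TM7SF2 and ACAT2 passed with each of the 9 H9 libraries left out.

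**Figure D3:**
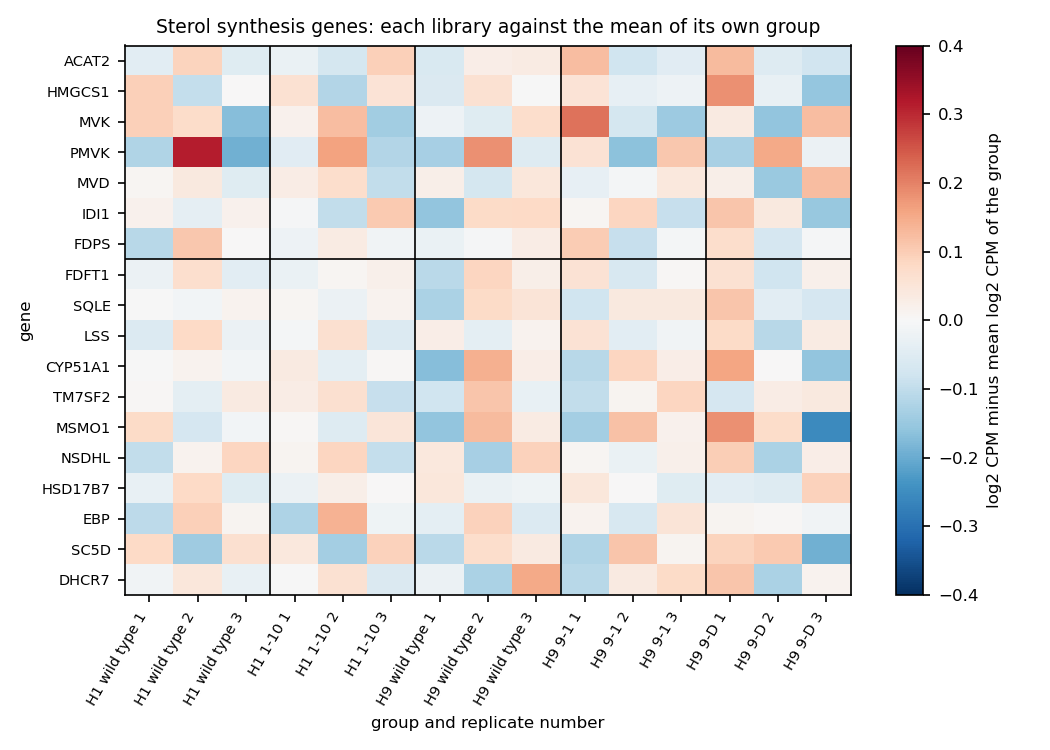
Log2 CPM of each sterol step (rows, mevalonate steps above the line) minus the mean of its own group, in each replicated library (columns). Red is above the group mean and blue below it: 9-D replicate 1 is the highest of its group for 12 of 18 genes, and H9 wild-type replicate 1 the lowest of its group for 11 of 18.

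Of the 6 control genes 2 passed in H9, both lower, against 29.7% of all genes passing and 15.3% lower, so the share passing is near that of all genes. SREBF2, the main SREBP of sterol synthesis, stood at 579, 577 and 589 CPM in wild type, at 499, 532 and 546 in 9-1 and at 531, 537 and 546 in 9-D. All 6 knockout libraries lay below wild type, with a log2 fold change of -0.13 (SE 0.0451, edgeR adjusted p 0.0286). SCAP, the escort of SREBP, stood at 243, 247 and 236 CPM in wild type, at 207, 221 and 217 in 9-1 and at 221, 225 and 229 in 9-D, also without overlap. Its log2 fold change was -0.14 (SE 0.0474, edgeR adjusted p 0.0299). Neither passed when genes with low counts were kept in the test, at adjusted p of 0.0655 and 0.0632. SREBF2 also lost its call without 4 of the 9 libraries (adjusted p up to 0.103, without wild-type replicate 3) and SCAP without 5 (up to 0.0912, without wild-type replicate 2). INSIG1, SREBF1, STARD4 and INSIG2 did not pass, at log2 fold changes of -0.02 to 0.09. INSIG2 in H9 was 0.09 (SE 0.107).

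Of the 8 fatty acid enzymes 3 passed in H9, 2 higher and 1 lower. Over all genes 29.7% passed, 14.4% higher and 15.3% lower, so the share passing is near that of all genes. ACSS2, lower in H1, was higher here, at 30.9, 29.2 and 32.5 CPM in wild type, 42.3, 35.0 and 39.9 in 9-1 and 41.3, 31.7 and 40.5 in 9-D, where 9-D replicate 2 lay within the wild-type range. It rose by 0.31 on the log2 scale (SE 0.0782, edgeR adjusted p 0.00259). ACLY, which splits citrate into acetyl-CoA, stood at 606, 547 and 616 CPM in wild type, at 726, 649 and 684 in 9-1 and at 706, 620.4 and 643 in 9-D. The closest libraries were 616 and 620.4, and the log2 fold change was 0.19 (SE 0.0527, edgeR adjusted p 0.00710). Without wild-type replicate 2, the lowest library, ACLY was 0.13 with an adjusted p of 0.0862.

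FADS1, a fatty acid desaturase, fell. It stood at 380.3, 401 and 412 CPM in wild type, at 325, 341 and 368 in 9-1 and at 358, 354 and 336 in 9-D, with all 6 below wild type. The log2 fold change was -0.20 (SE 0.0486, edgeR adjusted p 0.00214). FASN, ACACA, SCD, FADS2 and ELOVL6 did not pass, at log2 fold changes of -0.02 to 0.12. SCD, the stearoyl-CoA desaturase, had an unadjusted p of 0.0172 and an adjusted p of 0.0560 by edgeR at 0.12 (SE 0.0489). Over all members, 8 had knockout libraries that did not overlap wild type in H9, against 26.5% of all genes.

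The authors' deposited table gives the same 13 members as passing in H9, 10 higher and 3 lower.

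Each H9 clone was also compared with wild type, against the same 3 wild-type libraries, so the clones share their controls. In clone 9-1, 14 of 32 members passed (11 higher, 3 lower, against 26.3% of all genes, 12.8% higher and 13.5% lower), and in clone 9-D 6 of 32 (5 higher, 1 lower, against 23.5%, 11.5% higher and 12.0% lower). All 6 members that passed in 9-D, MVD, LSS, TM7SF2, FDFT1, ACSS2 and FADS1, passed in 9-1. Of these, only MVD and LSS passed in both clones in all 9 fits with a library left out. In 9-D, FDFT1 passed in 5 of the 9, ACSS2 in 6 and FADS1 in 7. In 9-1, FDFT1 and TM7SF2 passed in 7 of the 9 and FADS1 in 8. Without 9-D replicate 2, 11 members passed in 9-D, while all genes passing came to 3098 rather than 3619. MVD was 0.37 (SE 0.0651) in 9-1 and 0.33 (SE 0.0651) in 9-D, and TM7SF2 0.24 (SE 0.0676) and 0.35 (SE 0.0672).

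**Figure D4:**
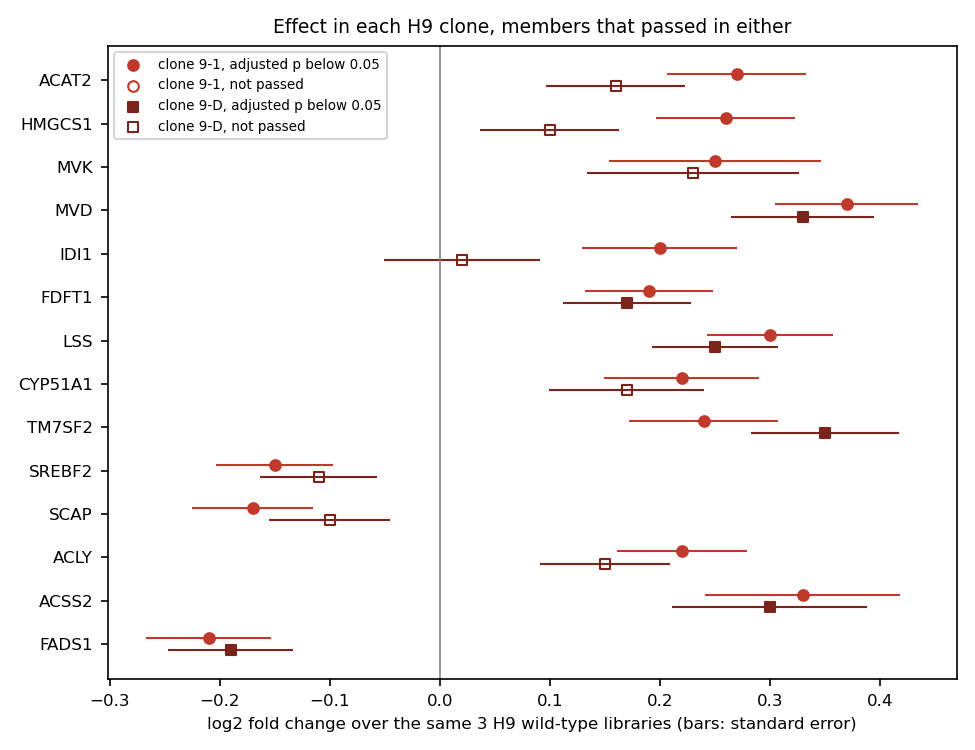
Log2 fold change with its standard error of the 14 members that passed in either H9 clone, circles for 9-1 and squares for 9-D, both over the same wild-type libraries. MVD, LSS, TM7SF2, FDFT1, ACSS2 and FADS1 are filled in both, and HMGCS1 and IDI1 have the largest gaps between the clones.

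HMGCS1 was 0.26 (SE 0.0632) in 9-1 and 0.10 (SE 0.0633) in 9-D, and IDI1, the isomerase that readies isoprenoid units for joining, was 0.20 (SE 0.0704) and 0.02 (SE 0.0708). In the direct comparison of 9-D with 9-1, 0 of 32 members passed by edgeR with Benjamini-Hochberg adjustment, against 0.305% of all genes (0.162% higher and 0.143% lower). DESeq2 also gave 0, and 3 members had an unadjusted p below 0.05 in edgeR: HMGCS1 at -0.16 (SE 0.0631), IDI1 at -0.18 (SE 0.0702) and STARD4, which carries sterol between membranes, at -0.22 (SE 0.0729). They were named after their values were seen. IDI1 stood at 81.8, 96.1 and 96.4 CPM in wild type, 105, 111 and 98.0 in 9-1, and 99.7, 95.0 and 83.2 in 9-D.

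Whether the knockout effect differed between the lines was tested directly, as the effect in H9 minus that in H1 over 15 libraries. Of 15802 genes 8.73% passed, and 8 of the 32 members did, all with the higher value in H9, against 4.96% of all genes in that direction and 3.77% in the other. The members that differed were ACSS2, INSIG2, MVD, TM7SF2, ACAT2, FASN, LSS and ACLY. ACSS2 was -0.32 in H1 and 0.31 in H9, a difference of 0.63 (SE 0.115, edgeR adjusted p 0.000185). MVD was -0.10 and 0.35, a difference of 0.44 (SE 0.0831, edgeR adjusted p 0.000256). MVD and ACSS2 passed with each of the 15 libraries left out. TM7SF2 failed without 2 of the 15 libraries, and each of the other 5 without 5 or more of them. The lines differ in the number of clones and libraries, and the labels do not say whether they were handled together. In the untested single H1 libraries, MVD, LSS, ACLY, ACSS2 and FASN had ratios above 1 in both clones. TM7SF2 and INSIG2 had ratios below 1 there, and ACAT2 1.00 and 1.01.

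Other genes of the lipid pathways are given as counts. Their lists were drawn up by function with earlier results of these data known, so the counts are a description. In H9, 9 of 15 genes of sterol and lipoprotein uptake, transfer and export passed, 4 higher and 5 lower, against 29.7% of all genes (14.4% higher and 15.3% lower). In H1 2 of 15 passed, near the 12.3% of all genes. ABCG1 and ABCA1, which export cholesterol from the cell, and SOAT1, which stores it as esters, were the largest in H9. ABCA1 stood at 34.8, 38.6 and 33.8 CPM in wild type, 25.1, 27.8 and 22.6 in 9-1, and 24.6, 24.6 and 20.1 in 9-D, with no overlap. Its log2 fold change was -0.56 (SE 0.0789, edgeR adjusted p 1.62e-06). ABCG1 was -0.57 (SE 0.127) and SOAT1 -0.53 (SE 0.108).

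In H1, ABCA1 went the other way, at 0.33 (SE 0.0969, edgeR adjusted p 0.0234), and SCARB1, which takes up lipoprotein cholesterol, was -0.24 (SE 0.0694). SCARB1 lost its call without 3 of the 6 libraries, with adjusted p up to 0.132 without knockout replicate 3. The H1 value of ABCA1 lost its call without 4 of the 6 libraries. The difference in ABCA1 between lines was -0.89 (SE 0.131, edgeR adjusted p 5.88e-06).

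Among 20 other genes of fatty acid synthesis, elongation and activation, 7 passed in H9, 4 higher and 3 lower, and 2 in H1, both higher. These shares are near the 29.7% and 12.3% of all genes. ME1, cytosolic malic enzyme, which supplies NADPH for lipid synthesis, had the largest change of any named gene of the lipid pathways. It stood at 5.45, 7.20 and 4.94 CPM in H9 wild type, 15.9, 16.0 and 14.2 in 9-1, and 14.1, 13.5 and 13.1 in 9-D. The log2 fold change was 1.31 (SE 0.117, edgeR adjusted p 2.61e-10), or 2.48-fold, against 0.07 (SE 0.127) in H1. ACSL1, which activates long-chain fatty acids, was 0.36 (SE 0.0924) and ELOVL4, an elongase, 0.28 (SE 0.0740) in H9. In H1, HACD1 was 0.43 (SE 0.117) and ELOVL4 0.29 (SE 0.0906). ELOVL4 in H1 was 0.18 without wild-type replicate 3 (adjusted p 0.266) and did not pass without 2 other libraries, by DESeq2 or with library totals only. HACD1 in H1 did not pass without knockout replicate 1 (0.101) or by DESeq2 (0.0533), and ELOVL4 in H9 did not without wild-type replicate 1 (0.0682).

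**Figure D5:**
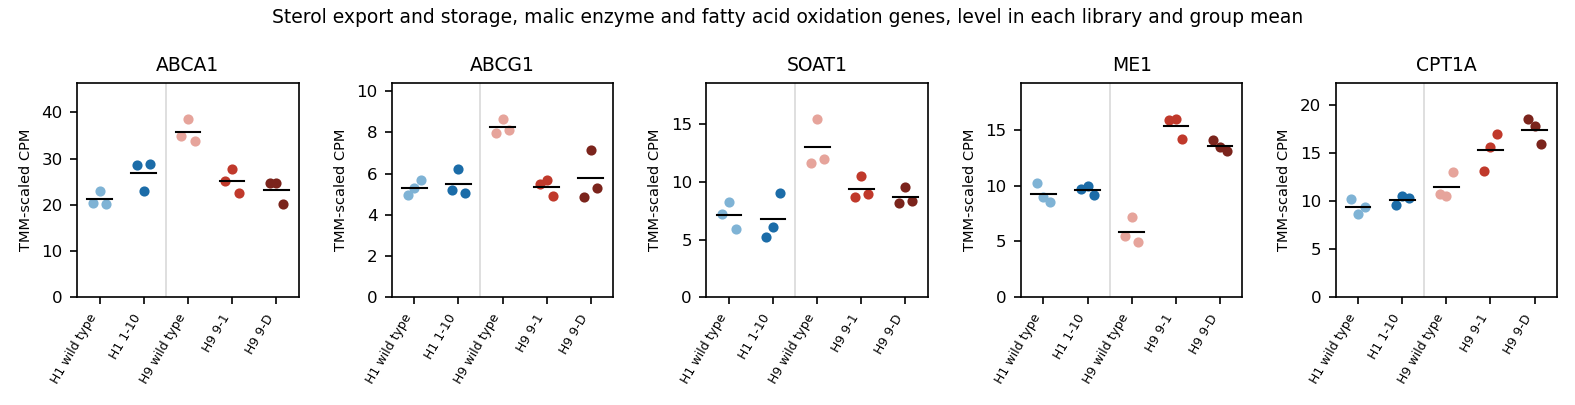
TMM-scaled CPM of ABCA1, ABCG1, SOAT1, ME1 and CPT1A in each of the 15 replicated libraries (points) with the group mean (line). In H9 the knockout points of ABCA1, ABCG1 and SOAT1 lie below all 3 wild-type points and those of ME1 and CPT1A above them.

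Of 15 fatty acid oxidation genes, 2 passed in H9, fewer in proportion than the 29.7% of all genes, and 1 in H1, against 12.3%. CPT1A, which admits fatty acids to mitochondria, was 0.51 (SE 0.103) and HADH -0.30 (SE 0.0629) in H9, and PPARA -0.52 (SE 0.158) in H1. PPARA lost its call without 4 of the 6 libraries (adjusted p up to 0.113), by DESeq2 (0.119) and without both libraries numbered 2 (0.134). Of 9 SREBP processing and degradation partners, 3 passed in H9 (ERLIN1 at -0.21, SE 0.0614, ERLIN2 at -0.19, SE 0.0542, and TMEM97 at 0.15, SE 0.0503), near the share of all genes, and none in H1, where 1 had an unadjusted p below 0.05. Both ERLIN1 and ERLIN2 lost the call without H9 wild-type replicate 3 (0.129 and 0.0541), and TMEM97 without wild-type replicate 1 or 2 (0.133 and 0.0833) and with library totals only (0.0984). Of 10 genes of the non-sterol isoprenoid branches, none passed in either line by edgeR, against the 12.3% and 29.7% of all genes, with 0 at an unadjusted p below 0.05 in H1 and 1 in H9.

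A CCAAT box stood in the promoters of 7 of the 8 members with a window that were higher in H9, and of 10 of the 20 others with a window. All 4 enzyme promoters printed above hold a CCAAT or ATTGG. This split was examined after the calls were seen and is a description only.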

How the data were processed

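The members and companion lists were chosen with earlier results of these data known. The submitters' processing notes name STAR, featureCounts, DESeq2 and the build hg19, per the labels; versions, options and strand are not given in the sources used here. Each deposited count table lists unnormalized counts of reads for 27130 symbols. Per the file headers, the authors' tables hold log2 fold changes and adjusted p-values, used only for which members passed. Columns whose names give a line and a number only were read as wild type. Counts were tested as deposited with edgeR 4.0.16 (R 4.3.3) quasi-likelihood F tests, scaling by TMM, low counts removed with filterByExpr, Benjamini-Hochberg adjustment over all tested genes and a threshold of 0.05. Comparisons were H1 (3 and 3 libraries), H9 (6 and 3), each H9 clone in a fit of all 9 H9 libraries, and the difference of effects over 15 libraries. SE is the absolute log2 fold change over the square root of F. CPM of single libraries use library totals, with exact 95% counting intervals of the ratio. Alternatives were DESeq2 1.42.0, RLE scaling, library totals only, no filter on low counts, a replicate block, each library left out, and, chosen after seeing the data, H1 without both libraries numbered 2. Scripts were tested on simulated data. All 32 members were described: full values were given for those that passed in any comparison and ranges for the others, and for each companion list up to 3 genes per line that passed with the largest change. Library totals were 9.66 to 21.0 M counts. Overlaps came from GENCODE 29 and shared words of 50 bases from its transcripts, promoters from RefSeq, both on GRCh38.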

Additional observations from a re-analysis of the deposited data

Results flagged for a closer look

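The knockout effect differed between the lines, by the edgeR test of the difference itself, for 8 members and 7 of the named companion genes. Given as the log2 effect in H9 minus that in H1, with Benjamini-Hochberg adjusted p, ACAT2 differed by 0.27 (p 0.0379), MVD by 0.44 (0.000256), LSS by 0.24 (0.0292) and TM7SF2 by 0.34 (0.0131) among the sterol steps. INSIG2 differed by 0.59 (adjusted p 0.0388 by edgeR), ACLY by 0.22 (0.0499), ACSS2 by 0.63 (0.000185) and FASN by 0.25 (0.0275). Among the companions, the differences were 0.65 for PPARA (adjusted p 0.0145 by edgeR), 1.24 for ME1 (2.27e-06), 0.61 for ACSL1 (0.00411), -0.32 for ERLIN1 (0.0219), -0.31 for ERLIN2 (0.0111), -0.89 for ABCA1 (5.88e-06) and -0.63 for ABCG1 (0.0416). ABCG1 passed in only 4 of the 15 fits with a library left out. It did not pass by DESeq2 (adjusted p 0.0802) or, by edgeR, with no filter on low counts (0.0504). ERLIN1 passed in 12 of the 15 fits, and the other companions in all 15.

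Over the 6 H9 knockout libraries, 46 genes were examined for a library far from the others, a rule that chance meets in about 1 of 20 groups. SREBF2 in 9-1 replicate 1, at 499 CPM, lay below the next library at 531, and ABCG1 in 9-D replicate 2, at 7.16 CPM, lay above the next at 5.69.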

How the results depend on the processing

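Depth limits the low genes most: INSIG2 rested on 94 counts in the single wild-type library. Leaving out each library moved the members passing between 1 and 4 in H1 (3 with all libraries), 7 and 16 in H9 (13), 8 and 15 in 9-1 (14), 5 and 11 in 9-D (6), 0 and 2 in 9-D against 9-1 (0, the 2 without 9-D replicate 1) and 3 and 8 in the difference (8). Sterol steps passing ran between 0 and 1 in H1 (0), 4 and 10 in H9 (8), 4 and 9 in 9-1 (9), 3 and 8 in 9-D (4), 0 and 1 between the clones (0) and 2 and 4 in the difference (4). Control genes ran between 0 and 1 in H1 (1), 0 and 2 in H9 and in 9-1 (2 each), 0 and 1 in 9-D (0), 0 and 1 between the clones (0) and 0 and 1 in the difference (1). Fatty acid enzymes ran between 1 and 2 in H1 (2), 2 and 4 in H9 and in 9-1 (3 each), 1 and 3 in 9-D (2) and 1 and 3 in the difference (3). The low ends of the members passing came without H1 wild-type or knockout replicate 3 in H1, without H9 wild-type replicate 1 in H9 and without 9-1 replicate 1 in 9-1; fewer libraries entered each of these fits.

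By DESeq2, 0 control genes passed in H1 and 0 in the difference. With library totals only, 5 sterol steps passed in H9 and 5 in 9-1, and 2 control genes in 9-D. With no filter on low counts, 0 control genes passed in H9 and 1 in 9-1, and in 9-D 10 members and 4 fatty acid enzymes passed. The cause was not tested. Same-numbered libraries had correlations of deviations of 0.03, 0.11 and 0.04 in H1 and -0.02 to 0.06 in H9. Such low values do not show pairing, but they cannot exclude it. The labels do not say what the numbers mark. With a replicate block 1 sterol step passed in H1, all genes passing in H1 came to 2926 rather than 1827 (1473 higher, 1453 lower), and the members passing were 4 in H1, 15 in H9 and 8 in the difference.

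Over all genes, library totals only gave 436 higher and 1381 lower in H1 and 1546 and 3015 in H9, and DESeq2 gave 1210 in H1. With each library left out, all genes passing ran between 949 (without wild-type replicate 3) and 2100 in H1 (1827 with all libraries). The ranges were 3486 to 4903 in H9 (4574), 3224 to 4371 in 9-1 (4053) and 2831 to 3614 in 9-D (3619). They were 25 to 53 between the clones (47) and 1056 to 1491 in the difference (1380). With no filter on low counts, 4735 passed in H9, 4090 in 9-1 and 3692 in 9-D. A replicate block gave 4750 in H9 and 1566 in the difference.

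Changes of sign were confined to values of at most 0.13 in size that passed in neither fit, 175 of 2622 values with a library left out and 49 of 1426 under the other settings, over all members and named companions. Among the values printed, without both H1 libraries numbered 2 ACAT2 was 0.02 and ABCG1 -0.05 in H1, and with library totals only LSS was -0.00 in H1 and IDI1 -0.03 in 9-D. With a library left out, ACLY in H1 reached 0.00, ABCG1 in H1 reached -0.05, and INSIG2 in H9 ran from -0.03 to 0.28 and IDI1 in 9-D from -0.06 to 0.10.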
